A study of Mus musculus with 27 samples.

Results

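The step from 5 h to 24 h of blast culture was followed in dnFOS cells kept under doxycycline (DOX), on 4 of the 27 arrays of the series. The arrays were picked out by their labels: the 2 arrays of FLK1+ cells after 5 h of blast culture with 1 µg/ml DOX (5 h DOX), and the 2 arrays of cultures after 24 h with the same dose (24 h DOX, day 1 blast culture). All genes on the arrays were examined. The dnFOS line is a mouse embryonic stem cell (ESC) line, called A2lox in the labels, with a DOX-inducible, Flag-tagged dominant-negative FOS peptide at the Hprt locus, and its clones were picked after drug selection. Embryoid bodies were grown for 3.75 days, FLK1+ cells were purified on magnetic columns, and these were placed in blast culture with IL-6 and VEGF. RNA came from complete, unsorted cultures, so that time in culture and time under DOX rose together, and a lower signal cannot be told apart as fewer cells of a type or less RNA per cell. The nearest comparison was the untreated step over the same hours in the same line, also with 2 arrays at 5 h and 2 at 24 h. An array of DOX-treated cells lacking the cassette was not among the samples.

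FLK1+ cells at this stage contain the hemangioblast, a mesodermal precursor of endothelial, smooth muscle (SM) and blood cells. In blast culture such cells leave the primitive streak programme, and part of them become contractile SM cells while others pass through hemogenic endothelium to blood progenitors. AP-1 is a dimer of FOS and JUN family proteins that binds the site TGACTCA, which reads TGAGTCA on the other strand. The dnFOS peptide pairs with JUN proteins through its leucine zipper and keeps the pair off DNA.

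Signals are given as log2 values relative to the 75th percentile of the array, so that a value of 0 equals that percentile and each unit is a doubling. The 75th percentile lay between 290 and 535 intensity units on the 4 arrays, and 58.0% to 65.2% of probes were well above background. Replicate arrays correlated across genes with r = 0.959 at 5 h and r = 0.967 at 24 h. Replicate 1 of both times lay on one slide and replicate 2 of both times on another, so that 2 differences could be taken, 1 within each slide. Nothing in the labels says whether the replicates came from separate differentiations, and p-values then measure only the spread between these samples. The Hprt probe, at the locus of the cassette, gave 3.63 and 3.75 at 5 h DOX and 4.82 and 4.50 at 24 h DOX. All 4 DOX arrays lay above the 4 untreated arrays, the highest of which stood at 2.61. The Hprt step under DOX, 0.97 on the log2 scale with an SE of 0.58, was not called by limma (adjusted p = 0.871).

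Between 5 h and 24 h under DOX 7 genes of the primitive streak and nascent mesoderm fell, among them Mesp1, Gsc and Eomes, while single genes of other groups rose, among them Acta2 and Myh11 of SM cells, Postn of the matrix and the embryonic globin Hbb-bh1. Of 24539 genes tested, 161 were called higher at 24 h, 0.656% of those tested, and 183 were called lower, or 0.746%. A gene was called when it changed 2-fold or more with a limma adjusted p below 0.05, and together called genes made up 1.4% of the genes tested. The smallest change called was 3.34-fold upwards and 3.52-fold downwards, and the median log2 fold change was 3.12 among genes called higher and -3.51 among genes called lower. For 37 genes called higher the 5 h arrays, and for 59 called lower the 24 h arrays, were not well above background. With those genes at their lower bound the medians were 2.91 and -3.13. The centre of all genes tested stayed near 0, with a median log2 fold change of 0.01.

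The 2 slides were compared directly. All 344 called genes moved the same way on both, and by at least 2-fold on each. These differences are not independent of the call, which rests on the same arrays. Across all genes tested, the differences on the 2 slides had a Pearson correlation of 0.601, a value given as a description because genes are not independent replicates. A fit that also held a fixed term for each slide called 480 genes higher and 399 lower, and 339 of the 344 genes were among them. In the 4 arrays alone with the replicate number, which is also the slide, as a block, 125 genes were called higher and 159 lower. Without that block the 4 arrays alone gave 0 calls in either direction, with a lowest limma adjusted p of 0.132 and 2276 genes at an unadjusted p under 0.05. Leaving out any 1 of the 4 arrays lowered the counts to between 33 and 49 genes called higher and between 19 and 99 called lower.

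**Figure D1:**
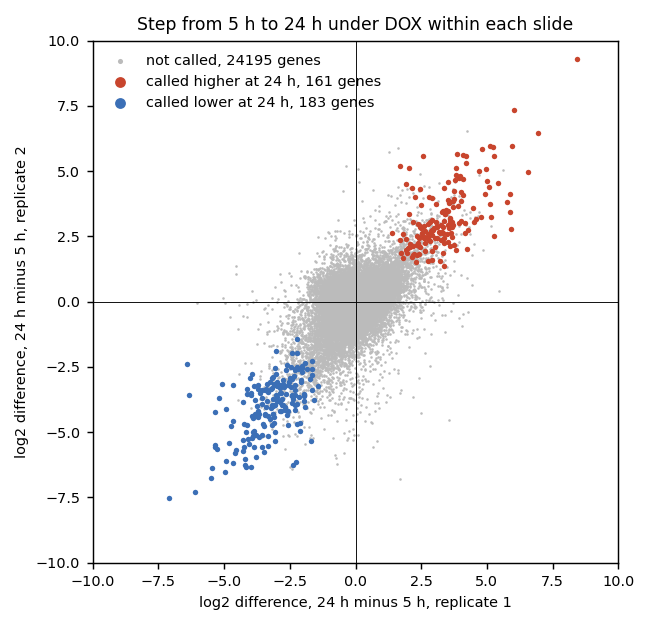
Log2 difference between 24 h and 5 h under DOX within the slide of replicate 1 (horizontal axis) and of replicate 2 (vertical axis), 1 point per gene tested. The 161 genes called higher (red) lie in the upper right and the 183 called lower (blue) in the lower left, while the remaining genes (grey) spread around 0.

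The genes named first had the 15 largest fitted rises and falls. Where a gene was not well above background at one time, its fitted value rests on readings near the floor, so its place in that order was not measured. The largest fitted rise was that of Postn, which encodes periostin, a secreted matrix protein of mesenchymal cells. Its signal was -6.59 and -6.53 on the 5 h arrays, not well above background, and 1.82 and 2.77 on the 24 h arrays. That is at least 120-fold higher at 24 h (adjusted p = 0.000367). Both 24 h arrays stood far above both 5 h arrays, whose readings lay near the floor. Angpt1, the ligand of the endothelial receptor TIE2, read -6.77 and -6.70 at 5 h and -0.74 and 0.67 at 24 h, at least 23.9-fold higher (adjusted p = 0.000486). Timd2, a ferritin receptor, went from -6.80 and -6.40 to 0.14 and 0.05, at least 26.2-fold higher (adjusted p = 0.000367). For all 3 genes the ranges of the 2 times were several doublings apart.

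Both subunits of the nitric oxide receptor, soluble guanylate cyclase, were among the 15 largest fitted rises, and neither was well above background at 5 h. Gucy1b1 was at least 59.4-fold higher at 24 h, with -4.86 and -4.29 at 5 h against 1.11 and 1.68 at 24 h. Gucy1a1 was at least 7.09-fold higher, with -6.66 and -6.61 against -1.96 and -1.62. Within the slides the Gucy1b1 differences of 5.97 and 5.96 rest on 5 h readings near the floor, so their likeness is not a measure of agreement. Septin4, of the filament-forming septin family, rose 40.3-fold, from a mean of -2.89 to a mean of 2.45, with log2 differences of 4.82 and 5.84 on the 2 slides (SE 0.67, adjusted p = 0.000486). Folr1, a folate receptor, rose from a mean of -1.54 to a mean of 3.36, with differences of 4.22 and 5.60.

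The other large fitted rises included Calr4, at least 27.4-fold higher, Olfml1, at least 11.3-fold, and the phagocytic receptor Megf10, at least 10.2-fold. Rbms3, an RNA-binding protein, rose 31.9-fold with a log2 difference of 5.43 and 4.56 on the 2 slides. One of its 3 probes moved the other way, and Timd2 likewise had 1 of 2 probes in the opposite direction. The remaining members of the 15, Col11a1, Col8a1, Snai2 and Hbb-bh1, are described with their groups.

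Among the falls, Pkp1, plakophilin 1, had the largest fitted value. It is a desmosome protein of epithelia. Its signal was 0.98 and 0.99 on the 5 h arrays and -6.11 and -6.54 on the 24 h arrays, where it was not well above background. The fall was thus at least 81.7-fold (adjusted p = 2.68e-05), and it was the lowest adjusted p of the comparison. Trh, the precursor of thyrotropin-releasing hormone, fell by 6.13 on the log2 scale and stayed well above background on every array, with 4.43 and 4.67 at 5 h and -1.07 and -2.09 at 24 h. Upp1, uridine phosphorylase 1, fell 43.1-fold, from 5.89 and 4.99 to 0.54 and -0.52, and its 2 probes moved the same way. Kcnn4, a calcium-activated potassium channel, fell 36.7-fold, from 0.38 and 0.96 to -4.20 and -4.86. No 24 h array reached the level of any 5 h array for these 4 genes.

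Vgf, a secreted neuropeptide precursor, fell 34.9-fold, from 3.38 and 3.25 to -1.18 and -2.44 (SE 0.85 on the log2 scale, adjusted p = 0.00449). Slc6a12, a betaine and GABA transporter, fell from 0.57 and 0.17 to -3.41 and -6.19, and only 1 of its 24 h arrays was well above background. Bean1, Stac, Rnf39, Tcstv3, Iqsec3 and Hs3st2 were also among the 15 largest fitted falls. All 6 were measured on both 5 h arrays and on neither 24 h array, and their lower bounds ran from 13.2-fold for Rnf39 to 18.8-fold for Iqsec3.

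**Figure D2:**
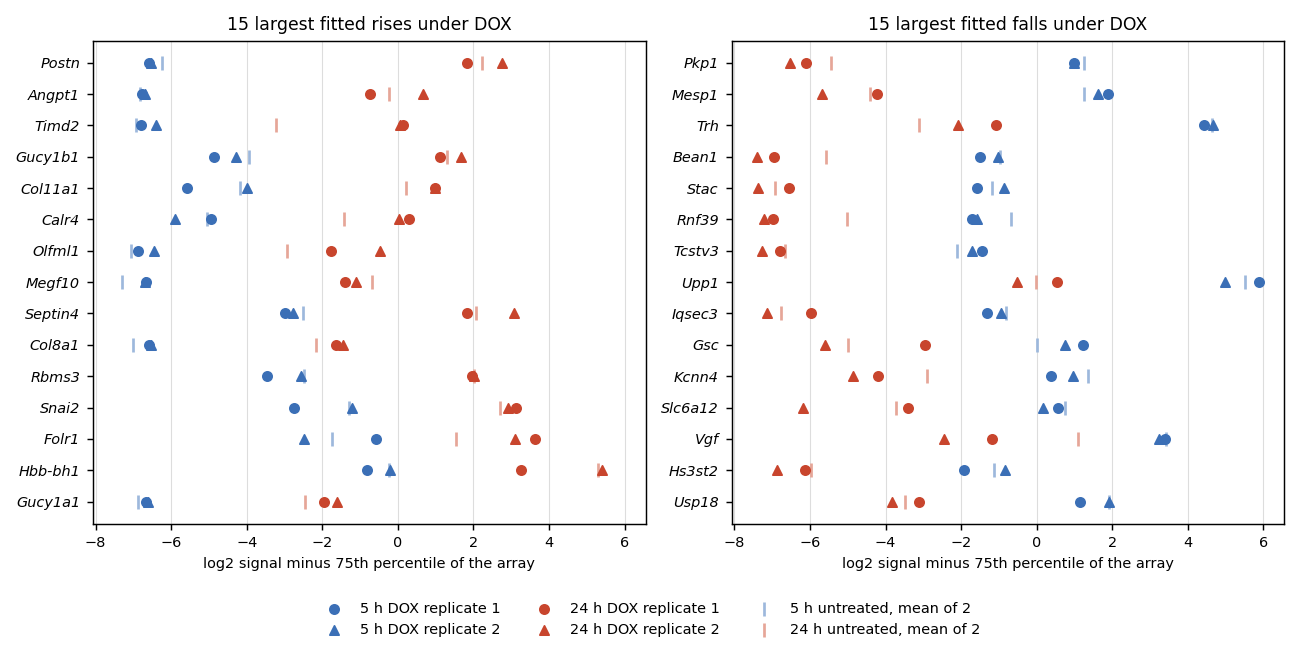
Log2 signal relative to the 75th percentile, array by array, for the 15 largest fitted rises (left) and the 15 largest fitted falls (right) under DOX. Circles and triangles are the 2 DOX replicates at 5 h (blue) and 24 h (red), and pale ticks are the untreated means of 2 arrays each. For every gene shown the 24 h DOX arrays lie apart from the 5 h DOX arrays, and Vgf and Timd2 show 24 h ticks well to the right and left of the DOX points.

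Of the 40 gene lists, that of the primitive streak and nascent mesoderm had the median farthest from 0. Of 25 listed genes 23 were tested, 7 were called lower, against 0.746% of all genes tested, and 0 higher, and 19 of the 23 had a negative estimate. With only probes detected on every array of both groups, 3 were called lower and the median was -1.85. Their median log2 fold change was -2.04, against 0.01 over all genes tested, and it was -1.66 on the first slide and -2.47 on the second. The 7 calls became 6 without d1_BC_DOX replicate 1, 0 without d1_BC_DOX replicate 2, 0 without FLK1_5h_DOX replicate 1 and 2 without FLK1_5h_DOX replicate 2, with medians between -3.02 and -1.37. Its median was no longer the farthest from 0 without FLK1_5h_DOX replicate 1, where feeder fibroblast genes stood at 1.77, without d1_BC_DOX replicate 2, where CDK inhibitors stood at 1.52, and with median scaling, where erythroid genes stood at 1.99. Mesp1, the factor of early cardiac and hematopoietic mesoderm, read 1.90 and 1.62 at 5 h and -4.23 and -5.68 at 24 h, a fall by 6.71 on the log2 scale with an SE of 1.16 (adjusted p = 0.00578). Only 1 of its 24 h arrays was well above background. Gsc, goosecoid, of the streak organizer, fell from 1.24 and 0.75 to -2.94 and -5.60, again with 1 of 2 arrays above background at 24 h. Eomes, a T-box factor that acts upstream of Mesp1, fell 10.2-fold, from 5.21 and 4.71 to 2.33 and 0.89, and was still well above background.

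Both nodal antagonists that were called fell with them. Lefty2 fell 9.06-fold, from 2.57 and 2.05 to -0.30 and -1.44. Cer1 fell from -1.98 and -0.97 to -4.37 and -7.25, with adjusted p = 0.0495, unequal differences of -2.39 and -6.28 on the 2 slides and only 1 of its 24 h arrays above background. Cdx1, a caudal-type homeobox factor, fell 13.7-fold, and Lhx1, a LIM homeobox factor, fell 4.78-fold. T (brachyury), which marks the streak, read 2.14 and 2.72 at 5 h and -0.10 and -1.98 at 24 h, and Mixl1 had a mean of 0.21 against one of -3.37. Neither passed the test, with adjusted p = 0.197 for T and 0.147 for Mixl1, although both 24 h arrays of each gene lay under both 5 h arrays. Pdgfra, also of early mesoderm, read 0.85 and 0.45 against 1.78 and 1.02 and was not called (adjusted p = 1).

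In untreated FLK1+ cells, before blast culture, the mean signal of Mesp1 was 5.24, that of Gsc 3.60, that of Eomes 5.73 and that of Lefty2 3.65. Each of these levels stood above the same gene at 5 h DOX. Etv2, the ETS factor that sets hemangioblast fate, had a mean of 5.06 in FLK1+ cells and fell by 4.58 on the log2 scale between the times under DOX, from 4.11 and 4.42 to 0.18 and -0.81 (adjusted p = 0.00602). It was the 1 member of 10 tested ETS and SOXF factors that was called, against 0.746% of all genes tested called lower. Of the 10, 7 had a positive estimate, such as Sox17 with -0.74 and -1.05 at 5 h against 2.00 and 1.17 at 24 h (adjusted p = 0.866) and Fli1 with -1.31 and -0.15 against 0.80 and 1.26.

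**Figure D3:**
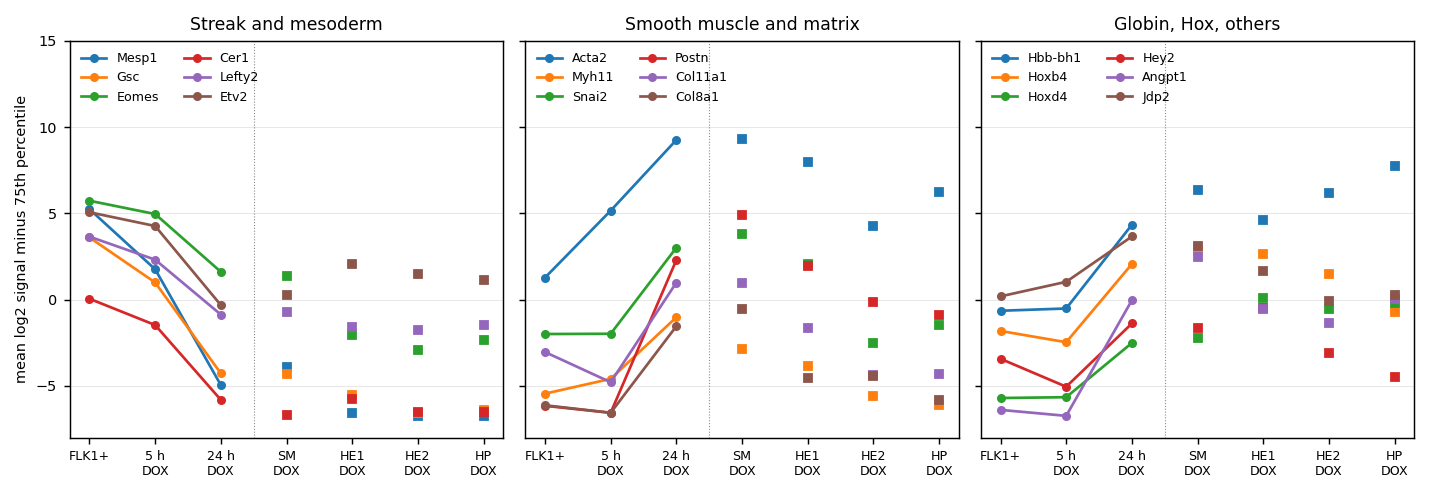
Mean log2 signal, relative to the 75th percentile on each array, in untreated FLK1+ cells, in 5 h and 24 h DOX cultures (circles joined by lines) and in SM, HE1, HE2 and HP cells sorted under DOX (squares, right of the dotted line), each the mean of 2 arrays. Each gene is to be read along its own course. The streak genes shown descend to 24 h, and Hbb-bh1 rises from -0.51 to 4.34. The SM and matrix genes shown climb between 5 h and 24 h. They were picked from genes called higher and do not stand for their groups, in which others stayed level or fell.

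Of 15 listed contractile genes of SM cells 13 were tested, 2 were called higher, against 0.656% of all genes tested, and 0 lower, and the median log2 fold change was 1.13. Leaving out d1_BC_DOX replicate 1, d1_BC_DOX replicate 2 or FLK1_5h_DOX replicate 1 left 1 call, and leaving out FLK1_5h_DOX replicate 2 left 0 with a median of 0.58. With only probes detected on every array of both groups, 1 was called and the median was 0.82. Acta2, SM actin, rose 17.2-fold, from 5.37 and 4.94 to 9.47 and 9.04, and its difference was 4.10 within each slide (SE 0.67, adjusted p = 0.00409). Myh11, the SM myosin heavy chain, rose 11.9-fold, from -3.68 and -5.51 to -1.65 and -0.39 (adjusted p = 0.0387), with differences of 2.03 and 5.12 on the 2 slides and only 1 of its 5 h arrays above background. Tagln, SM22α, was already high at 5 h, with 9.29 and 8.39, and read 9.43 and 9.29 at 24 h. Cnn1, calponin 1, read 7.64 and 6.45 at 5 h and 6.26 and 5.79 at 24 h. Neither Tagln nor Cnn1 was called, both with adjusted p = 1. Actg2, the enteric actin, gave -2.33 and -2.30 against 0.51 and 1.26, without passing the test (adjusted p = 0.225).

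Among 9 tested regulators of SM genes 1 was called, the Notch-responsive repressor Hey2, against 1.4% of all genes tested called in either direction. Hey2 rose 12.7-fold, from -4.24 and -5.85 to -0.69 and -2.08, with 1 of its 5 h arrays above background. Myocd, the SM co-activator myocardin, read -1.96 and -1.95 at 5 h and -0.48 and -1.28 at 24 h (adjusted p = 0.936), and Srf, its DNA-binding partner, 5.09 and 4.93 against 4.87 and 4.16. Hey2 is also the single call of 15 tested Notch pathway genes, whose median was -0.92. Hey1, its close relative, read 1.20 and 1.96 at 5 h and -0.04 and -0.23 at 24 h without a call (adjusted p = 0.666).

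The called matrix genes moved in both directions. Of 10 tested interstitial collagens 2 were called higher and 1 lower, against 0.656% and 0.746% of all genes tested. Col11a1, a fibrillar collagen, rose from -5.59 and -3.98 to 0.99 and 0.98, with only 1 of its 5 h arrays above background, and Col8a1, a short-chain collagen of vessels, was at least 8.43-fold higher. Col5a3 was at least 9.71-fold lower, with -2.43 and -1.75 at 5 h and -6.70 and -7.06 at 24 h. The median of the 10 was 0.73, or 0.37 with genes under background held at their bound. Some members were tested only through the time at which they were high, and among those well above background on all arrays of both times the median was -0.27, with 0 calls in either direction. The 3 calls became 1 without d1_BC_DOX replicate 1 or FLK1_5h_DOX replicate 2, and 0 without d1_BC_DOX replicate 2 or FLK1_5h_DOX replicate 1. Among 16 tested basement membrane genes Col4a5 was called, with a 21.6-fold rise from -3.02 and -2.51 to 2.10 and 1.24. Of 17 other matrix and crosslinking genes Postn alone was called, while Fn1, fibronectin, read 8.66 and 8.77 at 5 h and 7.52 and 5.91 at 24 h (adjusted p = 0.231) and Sparc 8.87 and 7.84 against 8.66 and 8.10. Snai2, the zinc finger repressor Slug, was the 1 call among 12 mesenchymal transcription factors, and it rose 31.8-fold from -2.75 and -1.21 to 3.12 and 2.90. Itga1, a collagen-binding integrin chain, rose 10.3-fold and was the 1 call of 12 integrins.

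A list of genes that the study's text names as bound by FOS and JUN, or by AP-1, was also followed. The study named them partly for lower expression with DOX on these samples, so the list is not independent evidence of a direction. Of its 19 members, all tested, 1 was called higher and 0 lower, against 1.4% of all genes tested called in either direction, and the median log2 fold change was -0.26. Without any 1 of the 4 arrays 0 were called, and without FLK1_5h_DOX replicate 2 the median turned to 0.14. Cdkn2a, which encodes the cell cycle inhibitors p16 and ARF, rose 8.26-fold, from -0.78 and -1.17 to 2.28 and 1.86 (adjusted p = 0.0147). Its neighbour Cdkn2b read -1.36 and -0.75 at 5 h and 1.12 and 1.73 at 24 h without passing the test (adjusted p = 0.638). The study describes both genes as bound by AP-1 and lower after AP-1 inhibition, which compares DOX with untreated cells and not the 2 times. Col1a1 gave 2.35 and 2.50 against 2.79 and 1.04, and Col5a1 gave 4.04 and 3.73 against 3.86 and 2.04. For both collagens the 2 slides gave unequal differences, 0.44 and -1.46 for Col1a1 and -0.18 and -1.69 for Col5a1. In the untreated step the same list had a median of 0.66 and also 1 gene called higher.

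Among the members of the AP-1 family 1 gene passed the test. Of 12 listed and 11 tested genes, Jdp2, a JUN dimerization partner that represses AP-1 sites, was called higher and 0 were called lower. Over all genes tested, 0.656% were called higher and 0.746% lower. Jdp2 read 1.02 and 1.04 at 5 h and 3.79 and 3.52 at 24 h, a 6.17-fold rise (SE 0.43 on the log2 scale, adjusted p = 0.00409). Fosl1, FRA1, had the largest estimate downwards, with -0.72 and -0.19 against -2.87 and -4.56, and missed the threshold (adjusted p = 0.0607). Fos read 1.11 and 1.85 at 5 h and 2.71 and 2.08 at 24 h, Jun 6.41 and 5.31 against 5.78 and 5.58, Junb -0.49 and -0.46 against -1.82 and -1.40, and Jund 6.17 and 4.98 against 6.50 and 4.69. None of these 4 genes was called (adjusted p = 1 for each), which does not show that their levels were equal. The array carries no probe for the dnFOS transgene that could be named here.

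For TEAD factors and the Hippo kinases upstream of their co-activator YAP, 0 of 14 tested genes were called in either direction. Tead1 read 3.69 and 3.64 at 5 h and 4.92 and 2.78 at 24 h, and Tead4 1.90 and 1.67 against 1.27 and 0.92. Among 21 tested YAP and TEAD target genes 2 were called higher, Rbms3 and Crim1, and 1 lower, Nt5e, against 0.656% and 0.746% of all genes tested. Crim1 lost its call whichever of the 4 arrays was left out, Rbms3 kept it only without FLK1_5h_DOX replicate 2 and Nt5e only without d1_BC_DOX replicate 1. With only probes detected on every array of both groups, 1 was called higher and 0 lower. Crim1, a membrane protein that binds BMPs, rose 4.61-fold, and Nt5e, the ecto-nucleotidase CD73, fell by 3.46 on the log2 scale with only 1 of its 24 h arrays above background. The best known targets of the list were not called, with 5.48 and 5.48 against 5.40 and 4.32 for Ccn1 and a mean of 4.81 against one of 4.05 for Ccn2.

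Endothelial and blood markers were set against the 1.4% of all genes tested that were called in either direction. Of 19 tested endothelial genes 0 were called in either direction, with a median of 0.52. Kdr, which encodes FLK1, the receptor used to purify the cells, read 4.60 and 3.23 at 5 h and 4.49 and 4.17 at 24 h. Cdh5, VE-cadherin, read -0.82 and -1.59 against 1.13 and 0.03, and Tek, TIE2, -3.96 and -2.45 against -2.25 and 1.36. Both Cdh5 values and both Tek values at 24 h lay above those at 5 h, without passing the test (adjusted p = 1 and 0.541). Of 11 tested surface markers of blood cells 0 were called. Kit read -1.45 and -2.27 at 5 h and -1.90 and -3.65 at 24 h, and Itga2b, CD41, -3.31 and -2.13 against -2.35 and -0.56.

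Hoxb4 was the 1 call among 15 tested hematopoietic transcription factors. It rose 23.1-fold, from -2.56 and -2.37 to 2.37 and 1.76 (SE 0.56 on the log2 scale, adjusted p = 0.000486). Runx1, the factor needed for blood to emerge from endothelium, had a mean of 1.55 at 5 h and 0.69 at 24 h. Tal1 read 1.64 and 1.99 against 1.83 and 2.35, Gata2 1.44 and 0.95 against 0.60 and 0.01, and Gfi1 -4.30 and -2.56 against -1.99 and -0.78. Not one of these 4 was called, and the lowest adjusted p among them was 0.754 for Gfi1. Of 24 tested Hox genes Hoxb4 and Hoxd4 were called higher and Hoxb1 lower, against 0.656% and 0.746% of all genes tested. Hoxb4 kept its call whichever of the 4 arrays was left out, and Hoxd4 and Hoxb1 lost theirs each time. With only probes detected on every array of both groups, 1 was called higher and 0 lower. Hoxd4 was at least 4.30-fold higher, and Hoxb1, of the 3′ end of its cluster, fell from -1.47 and -0.50 to -5.18 and -3.70 with 1 of 2 arrays above background at 24 h.

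Embryonic globin set the erythroid markers apart. Hbb-bh1, the βh1 chain of primitive erythrocytes, rose 28.9-fold, from -0.83 and -0.20 to 3.27 and 5.41 (SE 0.89 on the log2 scale, adjusted p = 0.00839). It was the 1 call of 12 tested erythroid genes, against 1.4% of all genes tested called in either direction. The median of the 12 was 1.73, and it became 0.94 with 3 genes held at their bound. The call was lost without d1_BC_DOX replicate 2, where the list's median was 1.00, and without either FLK1_5h_DOX replicate, and it was kept without d1_BC_DOX replicate 1. Hba-x, the ζ chain, was at least 5.28-fold higher on its means, with -3.90 and -0.35 at 24 h, and was not called (adjusted p = 0.969). The summed signal of the 15 listed erythroid genes, in multiples of the 75th percentile, was 5.81 and 6.33 at 5 h and 14.9 and 51.7 at 24 h, so that the 24 h arrays differed by more than 3-fold among themselves. Of 12 tested myeloid and 6 tested megakaryocyte markers 0 were called, which is close to the background at a share of 1.4% over all genes.

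Markers of other cells that the cultures could hold were looked at in the same way. At a share of 1.4% called over all genes tested, 0 calls in lists of this size is close to the background. Feeder fibroblasts, on which the ESC line is grown, were represented by 10 genes, of which 6 were tested and 0 called, and their summed signal was 5.72 and 4.03 at 5 h and 8.29 and 4.70 at 24 h. The 24 h range overlapped the 5 h range, and their part in the matrix genes was not tested. Of 20 tested pluripotency genes 0 were called. Pou5f1, OCT4, read 2.11 and 1.51 at 5 h and -0.60 and -1.85 at 24 h (adjusted p = 0.189), and Nanog -1.17 and -1.31 against -2.53 and -1.64. Neural ectoderm had 0 calls of 6 tested genes, and endoderm and epithelium 0 of 7.

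Signalling lists held at most 1 call each, against 1.4% of all genes tested called in either direction. With the slide as a random block, which called 478 genes higher and 472 lower over all, 3 members were called lower in each of the IL-6 and STAT3, the TGF-beta and BMP, and the Wnt lists, and 1 Wnt member higher. As a fixed block it gave 3, 2 and 1 called lower in these lists, and 1 called higher for IL-6 and STAT3. Il6ra, which encodes the receptor for the IL-6 in the medium, fell 5.79-fold, from 0.13 and 0.48 to -1.94 and -2.52 (adjusted p = 0.0154), and was the 1 call of 12 tested genes of IL-6 and STAT3 signalling. Il6st, the shared signalling chain gp130, read 1.39 and 2.15 at 5 h and 1.12 and 2.80 at 24 h. The VEGF ligands and receptors had 0 calls of 9 tested, with 1.51 and 1.77 against 2.92 and 2.75 for Vegfa. Grem1, a BMP antagonist, was at least 8.85-fold lower at 24 h and was the 1 call of 23 TGF-beta and BMP genes. Wnt5b, a non-canonical Wnt ligand, fell 8.11-fold, from 3.46 and 2.94 to 0.49 and -0.13, and was the 1 call of 20 Wnt genes. Dkk1, a secreted Wnt inhibitor, read 0.50 and 0.39 against 4.71 and 3.75 and just missed the threshold (adjusted p = 0.0593).

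The remaining lists held a few further calls. Isl1, a LIM homeobox factor of cardiac progenitors, fell 7.72-fold and was the 1 call of 16 cardiac and lateral plate genes. Usp18, which removes the ubiquitin-like ISG15 from proteins, fell 32.1-fold, from 1.14 and 1.91 to -3.12 and -3.83, as the 1 call of 10 interferon response genes. Slc2a3, the glucose transporter GLUT3, rose 3.94-fold and was the 1 call of 21 glycolysis and hypoxia genes, at an adjusted p of 0.0498 by limma. Lrrn4, a leucine-rich repeat protein of mesothelium, rose 4.46-fold and was the 1 call of 5 mesothelial genes. Among lists with 0 calls, which at a share of 1.4% over all genes is close to the background, were 25 cell division genes, with a median of 0.26, 12 genes of ribosome biogenesis and MYC, 17 immediate early and ERK feedback genes, 11 genes of the integrated stress response, 7 heat shock genes and 10 p53 targets. The calls of Hoxd4, Hoxb1, Hey2, Myh11, Crim1, Slc2a3, Lrrn4 and Lhx1 were each lost under more than 10 of 21 other settings, and all kept their direction. Among single calls of a list, those of Jdp2, Hoxb4, Usp18 and Postn were kept whichever of the 4 arrays was left out, and those of Cdkn2a, Il6ra, Hey2, Grem1, Isl1, Slc2a3 and Lrrn4 were lost whichever was left out. Those of Snai2, Itga1, Etv2, Wnt5b and Col4a5 were lost without some of the arrays and kept without others.

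**Figure D4:**
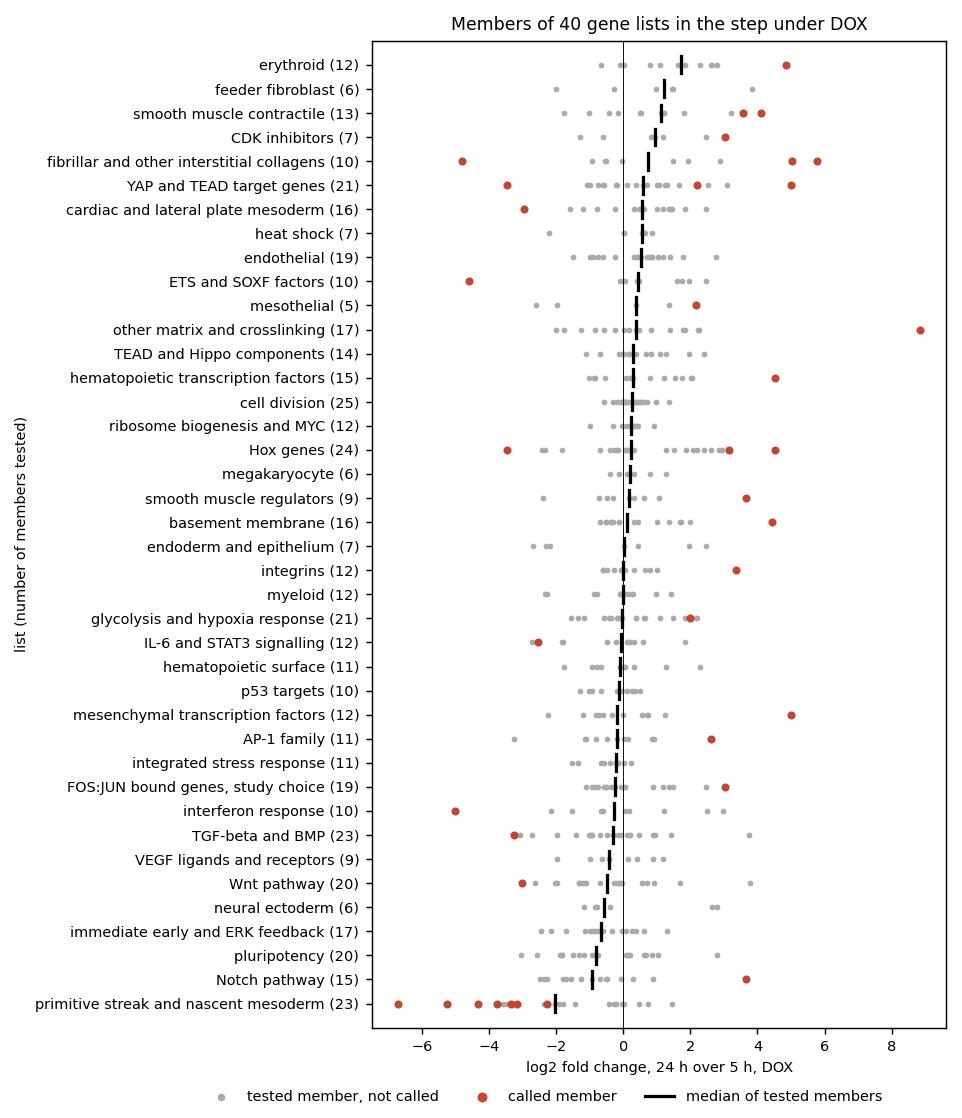
Log2 fold change of 24 h over 5 h under DOX for the tested members of 40 gene lists, ordered by their median (black bar). Red points passed the test and grey points did not, and the number of members tested stands in parentheses. The primitive streak list lies lowest, with a median of -2.04 and 7 called members. Postn lies farthest to the right at 8.85, a fitted value that rests on 5 h readings near the floor.

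The untreated step was measured on 4 other arrays of the same slides and 1 further slide. That further slide held the untreated 5 h array of replicate 1. In this replicate time and slide cannot be told apart, which also bears on the interaction of time and DOX. Of 23439 genes tested there, 130 were called higher at 24 h, or 0.555%, and 207 lower, or 0.883%. The 182 genes called in both steps made up 52.9% of those called under DOX and 54.0% of those called untreated, and 0 of them changed in opposite directions. Of the 344 genes called under DOX, 332 were tested in the untreated step, and all 332 had the same sign there, 324 of them with a difference of at least 2-fold. The same sign in both steps was seen in 65.1% of the 22612 genes tested in both. Of the other 12 called genes, which had no test in the untreated step, 8 had an estimate of the opposite sign. Genes called higher under DOX had a median log2 fold change of 2.28 without it, and genes called lower a median of -3.14. A median taken over genes selected on the DOX arrays is larger on those arrays by the selection itself.

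Both steps are given for a few of the genes described above. Acta2 changed by 3.99 on the log2 scale without DOX against 4.10 with it, Upp1 by -5.54 against -5.43 and Etv2 by -4.18 against -4.58. Postn was called higher in both steps. It was not well above background at 5 h in either, so the sizes of its 2 changes cannot be compared. Mesp1 changed by -5.67 without DOX and Gsc by -5.02, and both were called in that step as well. Others differed more in their estimates, among them Vgf with -2.32 against -5.13. Timd2, with 3.71 against 6.69, was not well above background at 5 h in either step, so these estimates rest on readings near the floor. Its means at 24 h were -3.235 without DOX and 0.095 with it, and 1 of its 2 probes moved the other way under DOX. Vgf was not called in the untreated step (adjusted p = 0.275).

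**Figure D5:**
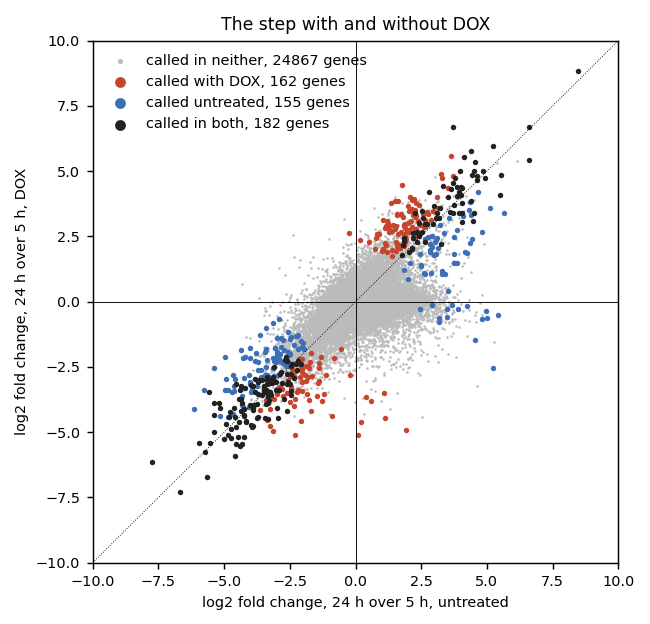
Log2 fold change of 24 h over 5 h without DOX (horizontal axis) and with DOX (vertical axis) for the genes tested in either step, with the dotted line marking equal change. The 182 genes called in both steps (black) lie where both signs are equal. Of the genes called in 1 step, 162 with DOX (red) and 155 untreated (blue), some lie near 0 on the other axis. Of all 344 genes called with DOX, 326 had an untreated estimate of at least 2-fold in the same direction.

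Whether a step differed with DOX was tested by the interaction of time and DOX. Of 25366 genes tested, 0 (0%) were called in either direction by limma, with 338 at an unadjusted p under 0.05 and a lowest adjusted p of 0.780. With 2 arrays a group, interaction estimates of 2.37 for Pdk1 (SE 0.81) and -2.81 for Vgf (SE 1.21) were not called. The lack of calls thus does not show that the steps were equal. Of the 344 genes called under DOX, 24 had an unadjusted interaction p under 0.05 in the same fit. None of the genes that follow was called, and they are named as those with the lowest p on each side. Fam169b and Pdk1 had estimates above 0. Pdk1, pyruvate dehydrogenase kinase 1, a brake on glucose oxidation, read -1.79 and -1.16 at 5 h DOX and 1.26 and 0.20 at 24 h DOX, against untreated means of -1.31 and -1.48. Fam169b was not above background at 5 h DOX and was called in the DOX step, with an untreated change of -0.23. Dach1, a nuclear cofactor of eye and limb development, read 0.01 and 1.01 at 5 h DOX and 0.33 and -0.66 at 24 h DOX, while its untreated means were 1.09 and -1.81.

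The other interaction genes above 0 were Disp2 and Kcnmb3, which were not well above background at 5 h DOX. Below 0 stood Cylc1, Gpr39, Olfr1317, Olfr591 and Atoh1. Cylc1 read -2.76 and -1.78 at 5 h DOX and was not above background at 24 h DOX, nor on any untreated array at 5 h. Olfr1317, an olfactory receptor, was not above background on any DOX array and had an untreated mean of -1.84 at 24 h. Gpr39 and Atoh1 each had 5 h DOX replicates more than 2 units apart, with -3.64 and -1.33 for Gpr39 and -4.32 and -0.89 for Atoh1. Most of these 10 genes thus lay at background in at least 1 of the 4 groups.

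In sorted populations of later cultures it was asked where the called genes were highest under DOX. These arrays were not among those compared, but they were part of the fit to all 27 arrays and thus of the spread behind the calls. SM, HE1, HE2 and HP cells had been sorted after 2 d with DOX, HE1 and HE2 being stages of hemogenic endothelium and HP hematopoietic progenitors. Of 160 genes called higher and detected in at least 1 of the 4 populations, 66.9% had their highest mean in SM cells. HE1 held 20 of them, HE2 17 and HP 16. Over all 23561 genes tested and detected, SM cells held the highest mean for 25.9%. Of 126 detected genes called lower, 47 (37.3%) were highest in SM and 40 (31.7%) in HP cells, against 35% in HP cells over all. Postn had a mean of 4.89 in SM cells and 1.97, -0.17 and -0.92 in HE1, HE2 and HP cells. Hbb-bh1 was highest in HP cells at 7.77, followed by SM cells at 6.365, HE2 cells at 6.178 and HE1 cells at 4.597. The highest mean of a gene thus does not show that its signal was restricted to that population. These shares are a description, without a test.

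Promoters were searched for 3 motifs, since the peptide acts on AP-1 and since TEAD factors and SRF, which binds the CArG box, are known regulators of SM genes. The promoters, 250 bases before to 50 bases after the start of a gene, came from RefSeq on build GRCm38.p6, and 111 of the genes called higher and 119 of those called lower had at least 1. A gene was counted when any of its listed promoters held the motif. The AP-1 site was searched as TGANTCA, with any base at its centre, and was present for 6 genes (5.41%) called higher and 18 (15.1%) called lower, against 6.55% of 11716 genes tested and 8.97% of all 27025 in the table. In the untreated step it was present for 1 of 73 genes called higher and 15 of 140 called lower. With C or G alone at the centre, a narrower search added after the data were seen, the site was present for 2 genes (1.8%) called higher and 16 (13.4%) called lower, against 4.71% of genes tested, and in the untreated step for 1.37% and 8.57%. The TEAD site GGAATG, on either strand, was present for 21.6% of genes called higher and 10.9% of those called lower, against 15.0% of genes tested, and in the untreated step for 24.7% and 13.6%. The CArG box, CC and GG around 6 A or T bases, was present for 0.901% and 0.84%, against 1.75%, and in the untreated step for 3 genes (4.11%) called higher and 4 (2.86%) called lower. A CArG box with a C or G among its central bases was not counted, so the CArG shares cover strict matches only. A match describes the letters and is not evidence of binding, and no test was made. The study found most FOS and JUN binding at distal intronic or intergenic elements, which a search close to gene starts largely misses.

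Of the 30 genes with the largest fitted rises and falls, 21 had a promoter, and 3 of these held an AP-1 site: Upp1 and Slc6a12, which fell, and Calr4, which rose and is shown with the one of its promoters that holds the site. They are printed with the Acta2 promoter, for the one called contractile gene with a motif, and that of Mesp1, which held a CArG box. Capitals mark the motif matches, and the strand is that of the gene. The AP-1 matches start at -45 in Upp1, at -58 in Slc6a12 and at 25 in Calr4, counted from the start of the gene, and Upp1 also holds a TEAD match at -216. The matches of Upp1 and Calr4 read TGAGTCA and that of Slc6a12 TGATTCA, which only the wider search finds. The Acta2 match is a TEAD site at -146 and the Mesp1 match a CArG box at -138. The printed Acta2 promoter also holds ccctatatgg and ccttgtttgg, which differ from the CArG pattern by a central C or G. The search did not count them, so the absence of a marked box in Acta2 reflects the strict pattern.
Upp1, chr11:9117758-9118057, plus strand: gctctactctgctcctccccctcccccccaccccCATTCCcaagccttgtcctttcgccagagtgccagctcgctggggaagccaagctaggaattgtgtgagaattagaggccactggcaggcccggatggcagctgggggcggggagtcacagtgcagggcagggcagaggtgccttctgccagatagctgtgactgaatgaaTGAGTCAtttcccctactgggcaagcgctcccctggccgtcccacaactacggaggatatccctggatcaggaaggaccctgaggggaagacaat
Slc6a12, chr6:121342324-121342623, plus strand: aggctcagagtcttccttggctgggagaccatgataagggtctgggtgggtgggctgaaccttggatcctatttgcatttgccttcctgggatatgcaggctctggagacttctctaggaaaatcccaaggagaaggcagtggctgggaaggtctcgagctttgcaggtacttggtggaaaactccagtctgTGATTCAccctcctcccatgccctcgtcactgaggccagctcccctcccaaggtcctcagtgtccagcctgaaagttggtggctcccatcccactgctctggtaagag
Calr4, chr4:109235382-109235681, plus strand: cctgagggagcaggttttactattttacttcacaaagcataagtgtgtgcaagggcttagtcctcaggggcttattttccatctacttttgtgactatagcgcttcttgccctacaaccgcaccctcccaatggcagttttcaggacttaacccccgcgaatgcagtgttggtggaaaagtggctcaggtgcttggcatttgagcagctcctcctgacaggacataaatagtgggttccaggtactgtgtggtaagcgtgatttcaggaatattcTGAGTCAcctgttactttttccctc
Acta2, chr19:34255324-34255623, minus strand: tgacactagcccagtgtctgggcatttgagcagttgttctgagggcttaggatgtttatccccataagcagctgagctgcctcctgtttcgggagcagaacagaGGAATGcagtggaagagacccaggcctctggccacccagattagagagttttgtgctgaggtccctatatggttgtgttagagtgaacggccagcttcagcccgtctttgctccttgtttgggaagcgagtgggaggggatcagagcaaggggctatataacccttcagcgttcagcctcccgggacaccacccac
Mesp1, chr7:79793541-79793840, minus strand: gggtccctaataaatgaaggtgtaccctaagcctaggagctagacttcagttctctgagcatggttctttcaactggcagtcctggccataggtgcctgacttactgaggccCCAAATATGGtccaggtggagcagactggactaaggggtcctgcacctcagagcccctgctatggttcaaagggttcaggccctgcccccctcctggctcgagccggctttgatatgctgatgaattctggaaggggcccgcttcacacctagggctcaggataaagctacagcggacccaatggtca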

How the data were processed

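RNA of 27 samples was hybridized to one-colour Agilent SurePrint mouse arrays, in 13 groups. For every spot the authors deposited a processed intensity from Feature Extraction (version 10.7.1.1 per the labels, 10.7.3.1 per the file headers), background-subtracted and not scaled between arrays. The authors also deposited median spot and background intensities, and a series table of log2 values that had been normalized. The series was analysed by the authors with limma, whose settings are not given in the sources used here.

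Each array had 62976 spots, and without controls 55681 probes remained. Outlier spots were left out, and spots of a probe were averaged. RefSeq accessions gave symbols for 26582 probes. For each of 37208 genes or transcripts (20145 with a symbol) the probe with the highest mean was kept. The log2 of each signal was set relative to that array's 75th percentile. Means of 13 groups were fitted to all 27 arrays by limma 3.58.1 (lmFit, then eBayes) under R 4.3.3. Residual degrees of freedom were 14 and prior ones 4.49. A gene was tested when every array of 1 or more of the groups compared had it well above background, and adjusted p-values (Benjamini-Hochberg) ran over all genes tested. A probe with no usable spot on an array was fitted without it. A lower bound sets the bright group's mean against the dim group's, each dim array taken at the higher of its own value and the lowest signal well above background on that array. The number of arrays limits the precision. The model was tested on simulated data.

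The genes named are the 15 largest fitted rises and 15 largest fitted falls with a symbol and the same sign on both slides, members of 40 lists (564 of 568 genes on the array), the 5 lowest interaction p-values on each side, and Hprt. The 4 arrays follow from their labels, but this comparison, the gene lists and their members were chosen with earlier results of these data known. Replicate numbers coincide with slides on the 4 arrays. The differences between replicates 1 and 2 correlated across genes with r = 0.512 between the 2 times. Alternatives were other background corrections, scalings, filters, blocks, array sets, variance models and thresholds, and leaving out each array, with the lone replicate then assumed to vary like the other groups. Python 3.11.15 was used with numpy 2.4.6, pandas 2.3.3 and matplotlib 3.10.9, and R also with its data.table package, 1.17.8.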

Additional observations from a re-analysis of the deposited data

How the results depend on the processing

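All 344 genes called under DOX kept their direction under every alternative, except 1 when the probes of a gene were averaged. The counts of calls moved far more than the directions. The 161 genes called higher and 183 called lower became 106 and 116 with median scaling, which shifted the median of all genes to 0.27, and 342 and 360 with the values the authors had processed. With detection required on all arrays of both times they became 72 and 72, and without a filter on dim probes about 1.1e+02 genes were called higher. With the slide as a fixed block the counts were 480 and 399, with the slide as a random block 478 and 472, and with array quality weights 375 and 436. In the 4 arrays alone they were 0 and 0, and at an adjusted p under 0.01 they were 46 and 59. Without d1_BC_DOX replicate 1 they were 49 and 99, without d1_BC_DOX replicate 2 34 and 19, without FLK1_5h_DOX replicate 1 33 and 83, and without FLK1_5h_DOX replicate 2 38 and 69. The replicate block gave 199 and 204, within 1.5 times of the counts without it, and 0 genes for the interaction of time and DOX. That interaction, with 0 genes called, had 1 with quantile normalization and 2 with array quality weights, and between 0 and 7 when 1 array was left out, with 7 without FLK1_5h_DOX replicate 2 and 3 without d1_BC_untreated replicate 1. Where these counts changed, the cause was not tested, apart from the fewer samples or genes that a setting itself brings. For 56 genes followed singly, 872 values stayed on their side of the threshold and 304 lost it, with 0 reversals. Genes near background on 1 side of the step have only a lower bound, and 2 arrays a group limit the precision of every value.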
